A study of Homo sapiens with 48 samples.

Results

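BAG3, its partner HSPB8, the small heat shock proteins HSPB1 and CRYAB, and BAG1 were followed in 8 human cancer cell lines given the proteasome inhibitor carfilzomib. These 5 genes were taken by symbol from a matrix of 33892 gene rows, and each has a single row. The lines came from colon cancer (RKO, DLD-1), lung cancer (H-23, H-1299), pancreatic cancer (PANC-1, CAPAN-2) and multiple myeloma (H-929, RPMI). Each line was treated for 24 h with carfilzomib, at the IC50 for its proteasome activity, or with the solvent DMSO as the control, in 3 biological replicates, which gives 16 groups and 48 libraries. The labels give no genetic change for any line beyond its tumour type, each tumour type stands on 2 established lines grown in dishes, and the drug concentrations of the lines were not used here. The study's title names an HSP70-driven response to proteasome inhibition as a vulnerability of cancer, and the comparison asked how each line's transcripts change when the proteasome is inhibited.

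The proteasome degrades proteins tagged with ubiquitin, and cells in which it is blocked collect misfolded protein. BAG3 is a co-chaperone that binds HSP70 through its BAG domain and small heat shock proteins, above all HSPB8, through other motifs. With the ubiquitin ligase STUB1 it hands clients to autophagy, a route called chaperone-assisted selective autophagy, and it takes part in carrying aggregates to the aggresome. BAG1 also binds HSP70 but has a ubiquitin-like domain and directs clients to the proteasome. HSPB1 (HSP27) and CRYAB (alpha-B crystallin) are chaperones that hold unfolded proteins without ATP. Genes of this group are induced by heat shock factor 1, which binds inverted repeats of the short unit GAA.

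In GRCh38 with GENCODE 29, BAG3 (ENSG00000151929) lies at chr10:119651370-119677819 on the plus strand and HSPB8 (ENSG00000152137) at chr12:119178642-119221131 on the plus strand. HSPB1 (ENSG00000106211) is a short gene at chr7:76302544-76304295 on the plus strand. CRYAB (ENSG00000109846) lies at chr11:111908565-111923722 on the minus strand, and BAG1 (ENSG00000107262) at chr9:33247820-33264720 on the minus strand. The span of CRYAB holds HSPB2 on the opposite strand, the end of BAG1 overlaps SPINK4 on the opposite strand, and the kit was stranded per the labels while the use of strand in counting is not stated. HSPB2 had 0 to 7 counts and SPINK4 0 to 71 in any library. CHMP5, which begins just beyond the start of BAG1 and is transcribed away from it without overlapping it, had 408 to 6281 counts, beside 454 to 2345 for BAG1. The HSPB1 pseudogenes HSPB1P1 and HSPB1P2 had at most 12 and 11 counts.

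Of the 5 genes, 4 matched the RefSeq promoter table (GRCh38.p14): BAG3, HSPB8, HSPB1 and BAG1. The 250 bases before the RefSeq start of BAG3, HSPB8 and HSPB1 are printed below, 5′ to 3′ on the gene's own strand, because the genes move together in several lines and are textbook heat shock targets. In all 3 genes the RefSeq start lies downstream of the outer end of the GENCODE gene given above, so the HSPB8 window and parts of the others fall inside those spans, and distances are counted from the RefSeq start. Capitals mark matches to GAANNTTC, a pair of facing GAA units, which reads the same on both strands. The windows are chr10:119651130-119651379 for BAG3, chr12:119178681-119178930 for HSPB8 and chr7:76302423-76302672 for HSPB1, all on the plus strand.
BAG3: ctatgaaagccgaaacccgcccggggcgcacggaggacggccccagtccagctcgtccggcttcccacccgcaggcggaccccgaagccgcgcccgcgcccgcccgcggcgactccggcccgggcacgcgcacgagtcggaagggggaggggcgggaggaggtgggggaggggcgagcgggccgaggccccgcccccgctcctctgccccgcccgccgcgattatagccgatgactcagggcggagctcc
HSPB8: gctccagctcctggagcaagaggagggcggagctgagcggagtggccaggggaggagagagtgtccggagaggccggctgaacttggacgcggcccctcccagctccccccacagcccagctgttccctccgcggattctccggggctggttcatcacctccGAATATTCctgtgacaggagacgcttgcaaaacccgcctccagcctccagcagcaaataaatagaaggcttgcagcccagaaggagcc
HSPB1: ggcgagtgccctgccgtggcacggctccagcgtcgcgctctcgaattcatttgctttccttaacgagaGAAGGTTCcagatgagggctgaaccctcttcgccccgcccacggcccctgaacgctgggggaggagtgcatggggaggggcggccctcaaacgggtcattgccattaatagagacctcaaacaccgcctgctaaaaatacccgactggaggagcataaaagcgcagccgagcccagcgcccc
HSPB8 holds the match GAATATTC that begins 88 bases before its RefSeq start and a further match, GAAGTTTC, 5 bases after it. HSPB1 holds GAAGGTTC, which begins 182 bases before its RefSeq start. BAG3 and BAG1 hold neither GAANNTTC nor the other arrangement, TTCNNGAA, in the 300-base table entry. Of 35116 promoters of 300 bases, 6.77% hold GAANNTTC, 7.74% hold TTCNNGAA and 13.5% hold at least 1 of them. A match describes letters in this window and is not a measured binding site.

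Depth ran from 9.12 to 64.4 M (mega) counts per library, and in H-929 the carfilzomib libraries (9.12 to 9.93 M) were shallower than the DMSO libraries (14.6 to 18.9 M). The treated H-929 libraries nevertheless held counts in more rows, 22685 to 22943 against 20323 to 20970 in DMSO. Levels are CPM, a gene's counts per M counts of the library, scaled by TMM factors within the 6 libraries of a line, so treatments are compared within a line. Because RNA was taken from whole cultures, fewer cells of a kind and less RNA per cell cannot be told apart. All 7 plasma cell and myeloma markers were above 1 CPM in H-929 and in RPMI, with summed levels of 7035 to 7604 CPM in DMSO and 4046 to 4152 CPM after carfilzomib in H-929, and of 2994 to 3283 and 1313 to 1526 CPM in RPMI. In H-1299, 2 of 5 epithelial markers were above 1 CPM, and their sum was 969.5 to 1065 CPM in DMSO and 360.3 to 399.5 CPM after the drug. The part of these marker shifts in the results below was not tested. Of 5 colon markers, 3 were above 1 CPM in DLD-1, also 3 in CAPAN-2, and 1, CDX2, in RKO, where KRT19 was at 0. KRT20 was at 0 in the DMSO libraries of all lines. In RPMI under DMSO, 4 of 5 epithelial markers were above 1 CPM. The lung markers NAPSA, SFTPB and SFTPC summed to at most 4.46 CPM in H-23 and 1.83 CPM in H-1299. Within a line, genes were tested with edgeR's quasi-likelihood F test and called at a Benjamini-Hochberg adjusted p under 0.05 over all genes tested in that line.

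BAG3 transcripts rose in all 6 lung, pancreatic and myeloma lines and in neither colon line. The rise ran from 1.56-fold in PANC-1 to 7.48-fold in RPMI. As background, 17.7% of the genes tested were called higher in H-23, 29.8% in H-1299, 20.5% in PANC-1, 25.7% in CAPAN-2, 26.4% in H-929 and 31.3% in RPMI. In the colon lines carfilzomib called few genes higher, 3.62% in RKO and 10.9% in DLD-1. Groups that do not overlap were also common. All treated libraries lay above all DMSO libraries for 23.3% of genes tested in H-23, 32.2% in H-1299 and 25.7% in PANC-1. These shares were 29.2% in CAPAN-2, 29.9% in H-929 and 34% in RPMI.

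In RPMI, BAG3 stood at 27.9, 27.5 and 32.2 CPM in the DMSO libraries and at 181.0, 208.3 and 268.9 CPM after carfilzomib. The groups were far apart, and the treated libraries also spread widely among themselves. The log2 fold change was 2.90 ± 0.12 (SE), with an adjusted p of 2.81e-10 by edgeR. In the other myeloma line, H-929, BAG3 was at 57.6, 57.2 and 53.1 CPM in DMSO and at 263.1, 277.8 and 331.9 CPM after the drug. All treated libraries were more than 4 times the highest control, and the log2 fold change was 2.38 ± 0.10 (adjusted p = 2.28e-10, edgeR).

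H-1299 moved by as much as H-929: BAG3 was at 46.3, 51.6 and 46.97 CPM in DMSO and at 250.2, 260.6 and 237.6 CPM after carfilzomib, a log2 fold change of 2.37 ± 0.05 (adjusted p = 1.9e-11, edgeR). BAG3 in the other lung line, H-23, went from 61.0, 57.7 and 58.7 CPM to 94.6, 96.4 and 97.9 CPM, a log2 fold change of 0.70 ± 0.04. These replicates lay within a few CPM of each other, so that the 1.63-fold rise was far larger than their spread (adjusted p = 2.23e-08, edgeR).

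Of the pancreatic lines, PANC-1 had the highest BAG3 level of the 8 lines under DMSO and the smallest called rise. Its libraries held 113.9, 115.9 and 114.5 CPM in DMSO and 183.6, 171.5 and 182.0 CPM after carfilzomib (log2 fold change 0.64 ± 0.04, adjusted p = 4.91e-08, edgeR). CAPAN-2 had 28.95, 28.2 and 27.7 CPM in DMSO and 98.5, 84.2 and 92.4 CPM after the drug (log2 fold change 1.70 ± 0.07, adjusted p = 1.14e-10, edgeR). Treatment groups did not overlap in either line.

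The colon lines kept overlapping groups. In RKO, BAG3 stood at 101.8, 86.3 and 94.9 CPM in DMSO and 83.4, 88.9 and 91.5 CPM after carfilzomib (log2 fold change -0.10 ± 0.06, adjusted p = 0.393, edgeR). In DLD-1 it stood at 71.5, 63.7 and 64.3 CPM and at 63.5, 59.3 and 70.4 CPM (log2 fold change -0.05 ± 0.07, adjusted p = 0.664, edgeR). The difference of these colon responses, DLD-1 minus RKO, was 0.05 ± 0.13 (log2).

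**Figure D1:**
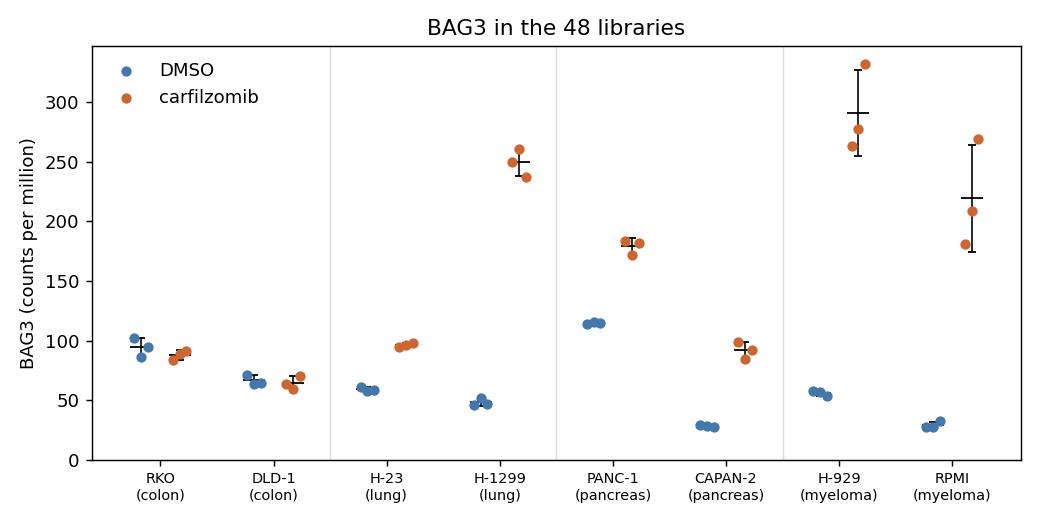
BAG3 level (CPM, linear axis) in each of the 48 libraries, by cell line and treatment. Points are libraries, black bars the mean ± SD of 3 replicates. The treated libraries lie above the DMSO libraries in the 6 lung, pancreatic and myeloma lines and overlap them in RKO and DLD-1.

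HSPB8, the small heat shock protein that forms a complex with BAG3, was tested in 5 of 8 lines and called higher in each. In H-1299 it passed the count filter only because of the treated libraries, so a rise there was partly set by the filter. Folds ran from 4.73 in H-1299 to 26.7 in RPMI, and in 4 of the 5 lines they exceeded those of BAG3. It was a low transcript in all lines under DMSO, at most 2.20 CPM in any library.

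In RPMI, HSPB8 went from 1.92, 2.02 and 2.20 CPM in DMSO to 46.5, 51.0 and 68.5 CPM after carfilzomib. No other line reached this level with the drug, and the log2 fold change was 4.74 ± 0.16 (adjusted p = 3.84e-11, edgeR). CAPAN-2 went from 0.69, 1.01 and 0.68 CPM to 12.4, 12.97 and 11.7 CPM (log2 fold change 3.98 ± 0.17, adjusted p = 2.16e-10, edgeR). PANC-1 went from 0.57, 0.81 and 0.69 CPM to 5.45, 5.90 and 6.54 CPM (log2 fold change 3.10 ± 0.17, adjusted p = 4.4e-08, edgeR). The 2 pancreatic lines thus had DMSO levels whose ranges overlapped and treated levels that were apart.

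H-23 had 2.11, 1.56 and 1.92 CPM of HSPB8 in DMSO and 14.2, 14.6 and 14.5 CPM after carfilzomib (log2 fold change 2.93 ± 0.13, adjusted p = 2.28e-09, edgeR). H-1299 had the fewest counts of the tested lines, 22, 8 and 23 in DMSO and 40, 77 and 27 after the drug. In CPM these were 0.33, 0.20 and 0.54 against 1.61, 2.25 and 1.17, groups that did not overlap (log2 fold change 2.24 ± 0.39, adjusted p = 0.000242, edgeR). Of the tested lines H-1299 had the widest relative spread among replicates in both groups. Its DMSO counts alone were too few for the count filter, so HSPB8 was tested in H-1299 because of the treated libraries. The adjusted p does not allow for that.

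The other 3 lines had almost no HSPB8 counts and gave no test. RKO had 0, 1 and 0 counts in DMSO and 0, 3 and 1 after carfilzomib. DLD-1 had 1, 0 and 0 counts and then 3, 3 and 2, a ratio of 10.1 per total count with an exact 95% counting interval of 1.35 to 446. Such counting intervals, here and below, use counts summed over the 3 libraries and leave out the spread between replicates. H-929 had 0 counts in all 3 DMSO libraries, where a count of 0 allows up to 0.0591 CPM over the group (3 counts), and 1 count in each treated library. A change of HSPB8 in RKO and H-929 was not detectable at this depth. H-929 is the line where BAG3 rose 5.21-fold, and there the treated HSPB8 level was 0.106 ± 0.0045 CPM (SD, n = 3), against 55.3 ± 11.6 CPM in RPMI.

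HSPB1 was the most abundant of the 5 genes per kb of exon under DMSO in each line, from 44.9 CPM per kb in PANC-1 to 131.2 in RKO when all libraries were set on one scale. By CPM alone BAG3 was above HSPB1 in PANC-1 (113.9 against 73.3), and HSPB1 and BAG1 were alike in H-929 (107.9 and 107.4). The order in those lines rests on the exon lengths. HSPB1 rose in 5 lines, fell in 2 and was not called in CAPAN-2. As background for the falls, 5.28% of the genes tested in RKO and 12.1% of those in DLD-1 were called lower.

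In RPMI, HSPB1 rose from 149.9, 138.7 and 140.2 CPM in DMSO to 1033, 1237 and 1447 CPM after carfilzomib. The treated level was above that of any other line, and the log2 fold change was 3.12 ± 0.10 (adjusted p = 2.84e-11, edgeR). H-929 went from 91.9, 100.9 and 107.6 CPM to 258.9, 231.7 and 287.5 CPM (log2 fold change 1.38 ± 0.09, adjusted p = 3.88e-08, edgeR). In both myeloma lines the groups were apart.

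In the lung and pancreatic lines the rises of HSPB1 were below 1.5-fold. H-1299 went from 70.1, 73.4 and 74.4 CPM to 98.2, 116.4 and 111.4 CPM (log2 fold change 0.58 ± 0.06, adjusted p = 2.73e-06, edgeR). PANC-1 had nearly the same levels, 77.7, 72.3 and 71.8 CPM in DMSO and 110.1, 95.1 and 108.0 CPM after the drug (log2 fold change 0.50 ± 0.05, adjusted p = 1.3e-05, edgeR). H-23 went from 153.4, 164.5 and 168.3 CPM to 209.5, 197.9 and 206.5 CPM (log2 fold change 0.34 ± 0.04, adjusted p = 2.88e-05, edgeR). In these 3 lines the groups did not overlap (the shares over all genes are given with BAG3 above). CAPAN-2 groups did overlap, with 157.9, 149.7 and 148.3 CPM in DMSO and 173.7, 156.0 and 172.2 CPM after carfilzomib. Its log2 fold change of 0.14 ± 0.06 missed the threshold (adjusted p = 0.0603, edgeR), and passed it with DESeq2's size factors (0.0418), with DESeq2's Wald test (0.0288) and without DMSO replicate 1 (0.0495) or carfilzomib replicate 2 (0.0376).

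The falls in the colon lines were small and with no overlap. All treated libraries lay below all DMSO libraries for 14.3% of the genes tested in RKO and 20.4% in DLD-1. RKO, the line with the highest DMSO level, went from 234.8, 236.4 and 244.9 CPM to 184.1, 209.3 and 203.8 CPM (log2 fold change -0.26 ± 0.05, adjusted p = 0.00666, edgeR). DLD-1 went from 185.4, 159.1 and 176.4 CPM to 123.1, 139.2 and 146.4 CPM (log2 fold change -0.35 ± 0.07, adjusted p = 0.00578, edgeR).

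**Figure D2:**
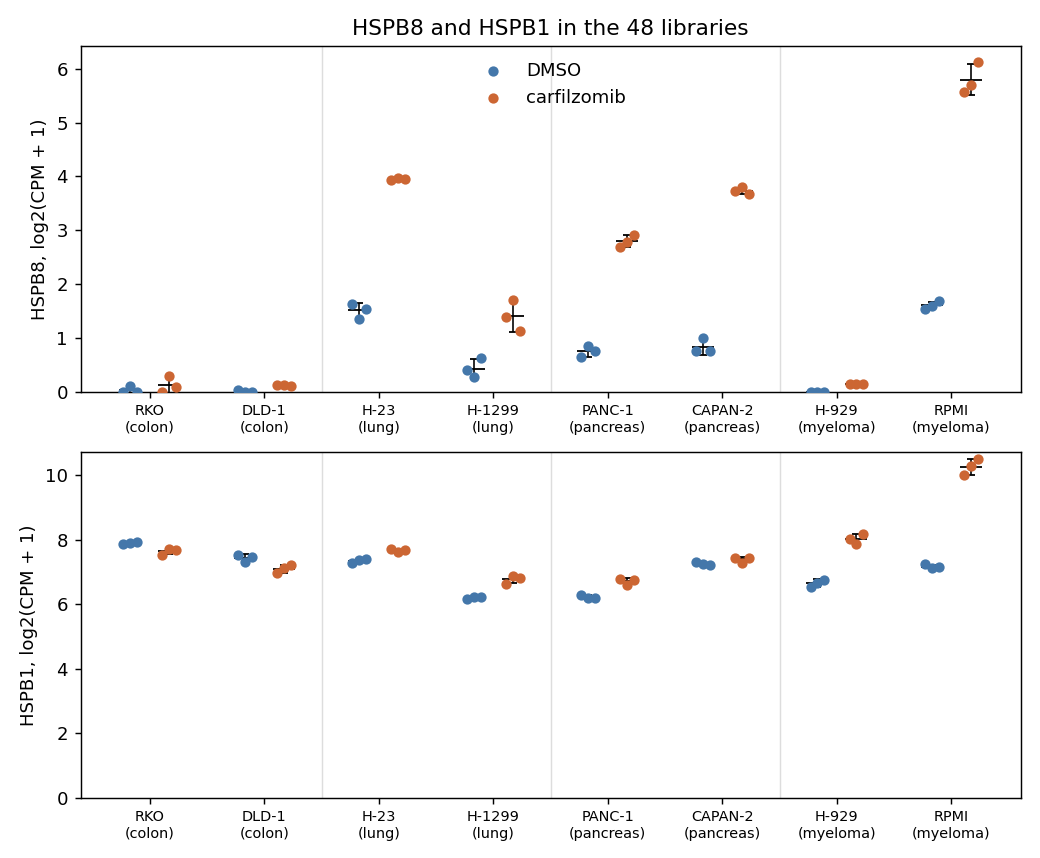
HSPB8 and HSPB1 levels as log2(CPM + 1) in each of the 48 libraries, by cell line and treatment. Points are libraries, black bars the mean ± SD of 3 replicates. HSPB8 is near 0 in RKO, DLD-1 and H-929 with and without the drug, and the 3 treated RPMI libraries are the highest for both genes.

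CRYAB, a small heat shock protein abundant in lens and muscle, was close to the limit of detection in all lines under DMSO, with at most 19 counts in a library. It was tested in 4 lines and called higher in DLD-1 and RPMI. In both of these lines the DMSO counts alone were too few for the count filter. CRYAB was tested there because of its treated libraries, and the adjusted p does not allow for that. In RPMI it had 0, 0 and 3 counts in DMSO and 54, 94 and 65 counts after carfilzomib. The ratio per total count was 94.3, with an exact 95% counting interval of 31.8 to 461 (adjusted p = 3e-07, edgeR). The treated level was 3.42 ± 0.849 CPM (SD, n = 3), the highest of any group.

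DLD-1 is the colon line in which BAG3 was not called and HSPB1 fell, and there CRYAB had 6, 7 and 2 counts in DMSO and 18, 19 and 19 after the drug. The ratio was 4.69 (exact 95% counting interval 2.62 to 8.93), and the log2 fold change was 2.20 ± 0.46 (adjusted p = 0.00668, edgeR). DESeq2's Wald test gave no adjusted p for this gene in DLD-1. PANC-1 had 6, 5 and 13 counts against 5, 20 and 21 (adjusted p = 0.238, edgeR), and CAPAN-2 had 10, 10 and 19 against 28, 21 and 6 (adjusted p = 0.208, edgeR). In both pancreatic lines the groups overlapped. H-1299 had no CRYAB count in the 3 DMSO libraries and 7, 11 and 0 counts after carfilzomib, so 1 treated library was also at 0. Without that library CRYAB was called higher in 3 lines. In that fit H-1299 was tested only because of its remaining treated libraries, so the added call is no support for a rise there. H-23 had 2 to 5 counts in DMSO and 1 to 6 after the drug, RKO had at most 1 and H-929 at most 4. The muscle markers DES, MYH7 and ACTA1 summed to at most 0.667 CPM in RPMI after carfilzomib, the line where CRYAB was highest. In H-929 their sum was 0.411 to 2.09 CPM in DMSO and 2.82 to 3.01 CPM after carfilzomib, with 2 of the 3 markers above 1 CPM.

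BAG1 moved little. It was called higher in H-23, H-1299 and CAPAN-2, lower in RPMI and in neither direction in the other 4 lines, and no called change exceeded 1.27-fold. In CAPAN-2 it went from 34.01, 35.6 and 32.04 CPM to 40.97, 43.4 and 45.002 CPM (log2 fold change 0.35 ± 0.06, adjusted p = 0.000309, edgeR). In H-1299 it went from 33.9, 36.3 and 35.8 CPM to 43.5, 41.5 and 41.1 CPM (log2 fold change 0.25 ± 0.06, adjusted p = 0.00243, edgeR). Both rises were apart from the spread of replicates, while scaling by library totals took the H-1299 value to 0.14 (adjusted p = 0.0503).

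The H-23 change of BAG1 was smaller, from 19.5, 21.8 and 19.6 CPM to 22.96, 23.6 and 22.9 CPM (log2 fold change 0.19 ± 0.06, adjusted p = 0.032, edgeR). This call was lost in 8 of 13 alternatives, among them leaving out DMSO replicate 1 or 3 or any one of the carfilzomib replicates, with adjusted p between 0.0671 and 0.147 in those 5 fits. In RPMI, BAG1 fell from 60.7, 62.3 and 63.6 CPM to 56.6, 55.8 and 52.8 CPM (log2 fold change -0.18 ± 0.06, adjusted p = 0.0129, edgeR). As background, 32.2% of the genes tested in RPMI were called lower. So in the line with the largest rise of BAG3, BAG1 was slightly lower.

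BAG1 in H-929, the line with the most of it, stood at 98.0, 100.7 and 100.2 CPM in DMSO and 96.2, 104.7 and 99.3 CPM after carfilzomib (log2 fold change 0.01 ± 0.08, adjusted p = 0.932, edgeR). A single fit of all 48 libraries, which scales H-929 against the other lines, gave -0.15 instead (adjusted p = 0.0128). The log2 fold change was -0.11 ± 0.06 in RKO, -0.05 ± 0.06 in DLD-1 and -0.02 ± 0.05 in PANC-1, none of them called.

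**Figure D3:**
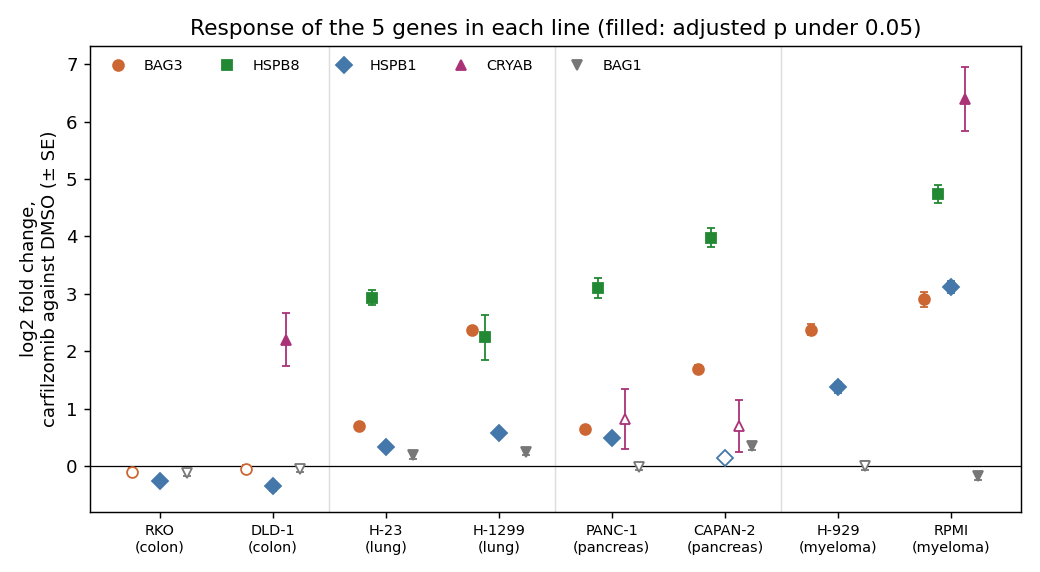
Log2 fold change of each gene (carfilzomib against DMSO, ± SE from edgeR, 3 against 3 libraries) in the lines where it was tested. Filled symbols passed an adjusted p of 0.05. BAG3, HSPB8 and HSPB1 lie highest in RPMI, and BAG1 stays near 0 in all 8 lines.

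The 5 genes were then compared across lines in one fit of all libraries. Averaged over 8 lines, BAG3 changed by 1.28 ± 0.03 on the log2 scale (adjusted p = 1.01e-32, edgeR) and HSPB1 by 0.64 ± 0.03 (adjusted p = 4.02e-23, edgeR), beside 19.8% of genes called higher and 23.9% called lower on average. BAG1 averaged 0.01 ± 0.02 (adjusted p = 0.672, edgeR). The average of HSPB8 was taken over the 5 lines that tested it and was 3.37 ± 0.11 (adjusted p = 7.85e-28, edgeR), where 20.8% of genes were called higher. H-1299, tested because of its treated libraries, is among the 5, here and in the test between lines below. The adjusted p does not allow for that. These errors measure replicates. When each line counted as 1 unit, neither the BAG3 average (1.32, adjusted p = 0.0846, limma) nor that of HSPB1 (0.68, adjusted p = 0.237, limma) passed. Without RPMI the HSPB1 average was 0.29.

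The response differed between lines for BAG3 (F = 152.3, adjusted p = 1.01e-25, edgeR), HSPB1 (F = 164.4, adjusted p = 2.77e-26, edgeR) and BAG1 (F = 15.1, adjusted p = 2.97e-09, edgeR). Of all genes, 67.7% differed in this test, so the call itself is common. HSPB8 differed among its 5 lines (F = 15.4, adjusted p = 3.6e-07, edgeR), where 56.3% of genes did. No average was taken for CRYAB, which had 3 counts or fewer in several groups.

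Lines of the same tumour type differed in 6 of the 15 responses that could be tested. The BAG3 rise was larger in H-1299 than in H-23 by 1.62 ± 0.12 on the log2 scale (adjusted p = 2.93e-14, edgeR; 30.8% of all genes differed between the lung lines). It was larger in CAPAN-2 than in PANC-1 by 1.08 ± 0.13 (adjusted p = 2.78e-09, edgeR; 24.9% between the pancreatic lines). In the myeloma lines it was larger in RPMI than in H-929 by 0.61 ± 0.13 (adjusted p = 0.000186, edgeR; 40.5% of all genes). The BAG3 difference between the colon lines was not called (adjusted p = 1, edgeR), where 4.04% of genes differed.

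HSPB1 also rose more in RPMI than in H-929, by 1.82 ± 0.12 on the log2 scale (adjusted p = 6.84e-17, edgeR). In the pancreatic pair the direction of the difference was opposite to that of BAG3: the HSPB1 response in CAPAN-2 was below that in PANC-1, by -0.33 ± 0.12 (adjusted p = 0.0309, edgeR). This call was lost without replicate 2 (adjusted p = 0.134) and without replicate 3 (0.0899). BAG1 differed in the pancreatic pair by 0.39 ± 0.08 (adjusted p = 5.08e-05, edgeR). HSPB8 differences missed the threshold in the pancreatic pair (0.90 ± 0.36, adjusted p = 0.0581, edgeR) and in the lung pair (-0.73 ± 0.37, adjusted p = 0.135, edgeR). The pancreatic one passed under a minimum mean of 50 counts (adjusted p = 0.0466, edgeR) and the lung one without replicate 2 (0.0383). The BAG1 difference in the myeloma pair (adjusted p = 0.292, edgeR) passed with DESeq2 size factors (0.0342), library totals (0.0379) and a minimum mean of 50 counts (0.0169).

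Ratios within a library do not depend on how libraries are scaled. Levels of different genes were compared per kb of all annotated exons of a gene, which for BAG1 include long alternative exons. On that scale BAG3 exceeded BAG1 in every line, by 4.29-fold in RKO and 1.21-fold in RPMI under DMSO. By CPM alone BAG1 was above BAG3 under DMSO in RPMI (62.2 against 29.2), H-929 (99.6 against 56.0) and CAPAN-2 (33.9 against 28.3). The order of the 2 genes in those lines therefore rests on the exon lengths. After carfilzomib the BAG3 to BAG1 ratio in RPMI was 10.1, a change of 3.07 on the log2 scale, and in H-929 it went from 1.45 to 7.45. It went from 3.52 to 15.3 in H-1299, from 2.15 to 5.47 in CAPAN-2, from 7.50 to 10.7 in H-23 and from 7.07 to 11.2 in PANC-1. In these 6 lines the treated and control libraries did not overlap, and the exact two-sided permutation p was 0.1 in each, the smallest that 3 against 3 libraries allow (0.13 adjusted over 13 ratios). In RKO and DLD-1 the ratio changed by 0.01 and -0.0016 on the log2 scale.

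The myeloma lines had the lowest BAG3 to BAG1 ratios in DMSO, and after carfilzomib the lowest were those of DLD-1 and RKO. HSPB8 to BAG3, per kb, went from 0.0673 to 0.242 in RPMI, from 0.0301 to 0.144 in H-23, from 0.0265 to 0.130 in CAPAN-2 and from 0.00573 to 0.0319 in PANC-1, again with no overlap. In H-1299 it was 0.00655 in DMSO and 0.00624 after carfilzomib with overlapping groups (exact permutation p = 0.9), since both genes rose there by a like amount. BAG3 transcripts outnumbered those of HSPB8 per kb in all groups.

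**Figure D4:**
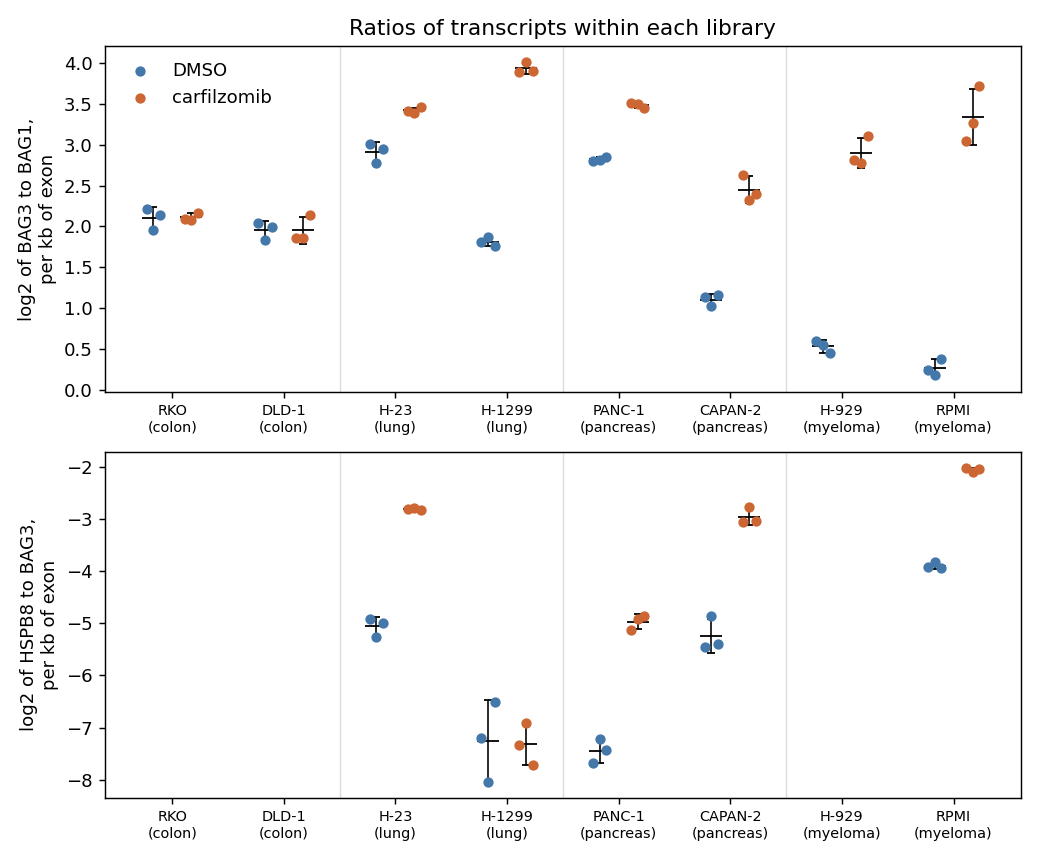
Log2 ratio of BAG3 to BAG1 (upper panel) and of HSPB8 to BAG3 (lower panel, 5 lines with HSPB8 tested), per kb of exon, in each library. Points are libraries, black bars the mean ± SD of 3 replicates. The BAG3 to BAG1 ratio is lowest in RPMI and H-929 under DMSO, and the groups overlap in the HSPB8 to BAG3 ratio in H-1299 alone.

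Levels under DMSO were ordered on one scale for all 48 libraries, so that these CPM differ a little from those within a line. BAG3 ran from 30.6 ± 0.590 CPM (SD, n = 3) in CAPAN-2 through RPMI, H-1299, H-23, H-929, DLD-1 and RKO to 113.9 ± 1.30 CPM in PANC-1. Of its 7 neighbouring pairs, 3 differed by edgeR: RPMI and H-1299, DLD-1 and RKO, and RKO and PANC-1. Across all genes, 70.5% of the same contrasts were called.

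HSPB1 ran from 73.3 ± 2.96 CPM in PANC-1 through H-1299, H-929, H-23, RPMI, CAPAN-2 and DLD-1 to 214.4 ± 8.86 CPM in RKO. Differing neighbours were H-1299 and H-929, H-929 and H-23, and DLD-1 and RKO (3 of 7, background 69.9%). BAG1 ran from 18.3 ± 0.978 CPM in H-23 through CAPAN-2, H-1299, PANC-1, DLD-1, RKO and RPMI to 107.4 ± 1.63 CPM in H-929. Here 4 of 7 pairs differed (background 68.5%), while CAPAN-2, H-1299, PANC-1 and DLD-1 formed a run with no called step. HSPB8, in the 5 lines with more than 3 counts, rose in the order H-1299, PANC-1, CAPAN-2, H-23 and RPMI from 0.387 ± 0.184 to 2.31 ± 0.206 CPM, and 2 of 4 pairs differed (background 69.1%). CRYAB lay between 0.0848 and 0.351 CPM in H-23, DLD-1, PANC-1 and CAPAN-2, and none of its 3 pairs differed by edgeR (background 66.6%).

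Other genes of the same families and routes were taken from 4 lists, counting genes with a single row. Beside the backgrounds given above, 16.2% of all genes tested were called lower in H-23, 31.3% in H-1299, 18.2% in PANC-1, 26.7% in CAPAN-2 and 26.2% in H-929. Of the other BAG family genes, BAG2, an inhibitor of STUB1, was called higher in 6 of 8 lines, from 0.26 ± 0.06 in DLD-1 to 1.09 ± 0.07 in CAPAN-2 (log2), with an average of 0.41 ± 0.03 (adjusted p = 8.24e-18, edgeR). Its promoter holds GAANNTTC, 124 bases before the start. BAG2 was the only gene beyond the members whose own promoter was looked up, so those of BAG4 and BAG5 were not. Of all promoters of 300 bases, 6.77% hold this motif. BAG4 averaged -0.11 ± 0.02 and BAG5 -0.14 ± 0.02, both called lower on average by edgeR, so that of 3 genes 1 was higher and 2 lower. In the colon lines BAG4 was called lower, by -0.24 in RKO and -0.30 in DLD-1 (log2), and so it was in RPMI, by -0.47. It was called higher in H-1299, by 0.43, and in H-23, by 0.15. BAG5 was called lower in RKO (-0.37) and RPMI (-0.14).

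Of 8 other small heat shock proteins, at most 4 were tested in any line. HSPB6, also called HSP20, was called higher in H-1299, by 1.09 ± 0.24 (log2), and in H-929, where its 3 libraries held 9 counts in all under DMSO and 107 after carfilzomib (adjusted p = 0.000371, edgeR). All 9 of those DMSO counts were in 1 library, so HSPB6 was tested in H-929 because of its treated libraries. The adjusted p does not allow for that. Beside those 107 counts of HSPB6, the treated H-929 libraries held 3 counts of HSPB8 in all. More rows of all kinds held counts in the treated H-929 libraries, as given with the depth. The part of that in the HSPB6 rise was not tested. HSPB11 passed upward in 3 lines and downward in H-23. HSPB7 was called higher in PANC-1, by 0.90 ± 0.22 (log2, adjusted p = 0.00604, edgeR), and in H-929, by 0.54 ± 0.21 (adjusted p = 0.0422, edgeR), and HSPB9 was called in no line. Both had 2 counts or fewer in at least 1 group, so no average is given for them.

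Among 13 partners in chaperone-assisted autophagy and the aggresome, 10 were called higher and 1 lower in RPMI, 8 and 1 in H-929, 7 and 4 in H-1299, 7 and 1 in CAPAN-2, 7 and 2 in H-23 and 7 and 3 in PANC-1. In RKO and DLD-1 these counts were 1 and 2, and 3 and 1. The list's median log2 fold change was lowest in DLD-1 (-0.05) and highest in RPMI (0.63), beside medians of all genes between -0.02 and 0.03. MAP1LC3B, the LC3 protein of the autophagosome membrane, was called higher in 6 lines, up to 1.98 ± 0.14 (log2) in RPMI, with an average of 0.74 ± 0.04 (adjusted p = 6.24e-20, edgeR). TAX1BP1, an autophagy receptor for ubiquitin-tagged cargo, was called higher in 5 lines and averaged 0.55 ± 0.02 (adjusted p = 1.03e-24, edgeR).

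FLNC, the actin crosslinker that is a known client of the BAG3 route, was called higher in 6 of the 7 lines that tested it. In PANC-1 it went from 51.2 ± 2.38 to 143.7 ± 8.12 CPM and in H-1299 from 740.9 ± 114.8 to 1972 ± 121.3 CPM (SD, n = 3). FLNC in H-929 had 2 counts in DMSO and 65 after the drug, so no average over lines is given. It was tested in that line because of the treated libraries, in which more rows of all kinds held counts. STUB1, the ligase that works with BAG3, moved the other way in 4 lines. It was called lower in RPMI (log2 fold change -0.88 ± 0.07), H-1299 (-0.87 ± 0.08), CAPAN-2 (-0.24 ± 0.07) and H-23 (-0.19 ± 0.06) and in no line higher. STUB1 was named after its values were seen.

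Of 14 other heat shock factor targets and factors with a single row, 0 were called higher and 9 lower in RKO, and the same counts held in DLD-1. H-1299 and CAPAN-2 each had 13 higher and 0 lower, RPMI had 11 and 2, H-929 and PANC-1 each 9 and 1, and H-23 6 and 2. The list's median log2 fold change was -0.38 in RKO, -0.31 in DLD-1 and, at the other end, 0.82 in RPMI. DNAJB1, an HSP40 partner of HSP70, averaged 1.10 ± 0.03 (adjusted p = 6.14e-33, edgeR), from -0.59 in RKO to 4.77 in H-929. HSP90AA1, the inducible HSP90, averaged 0.67 ± 0.03 (adjusted p = 8.79e-24, edgeR). DNAJB1 rose more in H-929 than in RPMI by value, whereas BAG3, HSPB1 and HSPB8 had their largest values in RPMI.

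The genes whose 8 responses were most like those of BAG3 were PPP1R15A (Pearson r = 0.98), HSPH1 (0.98) and HAUS8 (0.98), among 3682 genes tested in all lines with a log2 fold change of at least 1 in some line. PPP1R15A, the phosphatase subunit GADD34, ran from -0.01 in RKO to 3.01 in RPMI. HSPH1, an HSP110 chaperone, ran from -0.71 in RKO to 1.71 in RPMI. For HSPB1 the nearest were PMM1 (0.97), NBR2 (0.97) and LAMP3 (0.97), and for BAG1 they were ABHD3 (0.95), PA2G4P2 (0.92) and MITF (0.89). HSPB8 and CRYAB were not tested in all lines and have no such list. Over the 8 lines the responses of BAG3 and HSPB1 had an r of 0.80 and those of BAG3 and BAG1 an r of 0.16. These values describe 8 lines, each with its own treated and control libraries, and were picked as the highest among many genes.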

How the data were processed

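RNA from 48 cultures of 8 cell lines was sequenced from stranded total RNA libraries, per the labels' protocols. The deposited table holds the authors' raw read counts per gene, with no normalization. The submitters' processing notes name bcl2fastq 2.19, FastQC, Trimmomatic, HISAT2, DESeq2 and the build hg38, without their roles. The counting program, annotation and use of strand are not given in the sources used here.

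Counts were tested with edgeR 4.0.16 (R 4.3.3; quasi-likelihood F test, TMM, filterByExpr) on the 6 libraries of each line and, for averages, differences and DMSO levels, in one fit of 48 libraries with 16 groups and 22309 genes. Standard errors are the absolute log2 fold change over the square root of F. Genes were called at a Benjamini-Hochberg adjusted p under 0.05 over all genes tested. The fit was tested on simulated data with 200 changed genes. No pair of replicates agreed within sampling noise (the lowest chi-square per degree of freedom was 3.47), so all libraries were kept. Totals of 9.12 to 64.4 M counts set the counting error only.

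The members, gene lists and rule for named genes were chosen with earlier results of these data known. The rule names the members, per member the 3 genes with the most similar responses, and per list up to 3 genes with the largest average. Of the genes it names, 1 is not reported here. After the counts were seen, the HSPB8 average was limited to 5 lines, tumour type contrasts to genes tested in both lines, and DMSO neighbours to groups with over 3 counts. Rows that share an identifier (4803 rows, among them HSPA1A, HSPA1B, HSF1 and SQSTM1) were left out of list counts as uncertain. Coordinates and exon lengths come from GENCODE 29, matched by identifier for 29680 rows (87.57%). The alternatives were DESeq2 1.42.0 size factors or Wald test, library totals, a minimum mean of 50 counts or no filter, one fit, a replicate block, limma 3.58.1 on the 8 lines, and leaving out libraries, replicate numbers or lines.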

Additional observations from a re-analysis of the deposited data

Results flagged for a closer look

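Within a tumour type, 6 responses differed between the 2 lines by the test of the difference itself in edgeR. BAG3 rose more in H-1299 than in H-23 (1.62, log2), more in CAPAN-2 than in PANC-1 (1.08) and more in RPMI than in H-929 (0.61). HSPB1 rose more in RPMI than in H-929 (1.82). Its response in CAPAN-2, which was not called, was below that in PANC-1 (-0.33), a difference lost without replicate 2 (adjusted p = 0.134, edgeR) or replicate 3 (0.0899). BAG1 differed between CAPAN-2 and PANC-1 (0.39). Differences of HSPB8 in the lung and pancreatic pairs and of BAG1 in the myeloma pair were called under some alternatives alone, as given above. Each line of a pair was given carfilzomib at its own IC50, so the concentrations may differ. The lines also differ in depth and in the share of all genes that changed. The part of any of these in the differences was not tested.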

How the results depend on the processing

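Of 33 log2 fold changes of a member in a line, 29 kept their side of the threshold under every alternative run for them, and every value called in the main test kept its direction. The exceptions were BAG1 in H-23, H-1299 and H-929 and HSPB1 in CAPAN-2. Of the values not called, BAG3 in DLD-1 (-0.12 to 0.01), BAG1 in PANC-1 (-0.06 to 0.01) and BAG1 in H-929 (-0.15 to 0.12) lay on both sides of 0. BAG1 in H-929 reversed to -0.15 in one fit of all libraries, which gave 2 lines with BAG1 lower in place of 1. Library totals left BAG1 higher in 1 line in place of 3, called its average (0.050, adjusted p = 0.0292, edgeR) and called 5 of 7 neighbouring DMSO levels of BAG3 different in place of 3. CRYAB was called higher in 0 lines under the mean of at least 50 counts, where too few counts were left to test it, and in 1 line by DESeq2's Wald test, in place of 2. With cell lines as the units, the averages of BAG3 (1.32, adjusted p = 0.0846, limma) and HSPB1 (0.68, adjusted p = 0.237, limma) were not called. Apart from the cases with fewer genes or other units, the cause was not tested. An average of HSPB8 over all 8 lines was added after seeing the data and gave 3.26.

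Without a replicate number, the neighbouring DMSO levels of HSPB8 that differed numbered 1 to 2. Leaving out 1 cell line at a time moved the average of BAG3 between 1.05 and 1.47, and that of HSPB1 between 0.29 and 0.78.

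Replicate numbers did not pair the samples: deviations of same-numbered samples correlated between -0.07 and 0.04. Under the replicate block the BAG3 average was 1.28 and the HSPB1 average 0.64, with BAG3 called higher in 6 lines, HSPB8 in 5 and HSPB1 in 5. The block changed no call of a member in a line. It could not be fitted for DMSO levels, where the block takes up the lines.

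Low counts limit what can be said of HSPB8 in RKO, DLD-1 and H-929 and of CRYAB in all lines but RPMI under carfilzomib.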
